A study of Mus musculus with 4 samples.

Results

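The collagen genes were followed through fibroblasts, endothelial cells, tumour cells and myeloid cells of mouse pancreatic tumours. Members were all rows of the deposited single-cell count tables whose gene symbol has the form Col, a number, a and a number. Of the 32285 genes in the tables, 44 matched this form, and 33 of these had at least 20 UMIs (unique molecular identifiers, 1 per captured mRNA molecule) summed over the 4 libraries. The 11 genes left out had between 0 and 17 UMIs and included Col2a1 with 3 UMIs, the chain of cartilage collagen, and Col17a1 with 11 UMIs, a transmembrane collagen of epithelia. The 33 members held 175265 UMIs in all barcodes of the tables. By the structure of their proteins, 10 members were fibrillar collagens, 5 basement membrane chains, 5 beaded-filament chains, 5 fibril-associated collagens, 2 multiplexins, 2 short-chain collagens, 2 transmembrane collagens, 1 anchoring-fibril collagen and 1 of another kind.

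All tumours came from KPC46, a line of mouse pancreatic ductal adenocarcinoma (PDAC) organoids, and the strain was given as B6/129 F1J. The groups were 2 mice that received the vehicle Cremophor, a solubilising oil, and 2 mice that received TAK-981 (subasumstat), an inhibitor of the enzyme that activates the small protein modifier SUMO. Each tumour was dissociated into single cells and gave 1 library of 10x Genomics 3′ v3.1 chemistry. Suspensions of low viability had dead cells removed, and which ones these were is not given in the sources used here. All tumour cells thus derive from 1 organoid line, and age, dose and length of treatment were not given in the sources used here. The libraries are called vehicle 1, vehicle 2, TAK-981 1 and TAK-981 2, and values given 4 at a time follow this order.

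Collagens are secreted or membrane-bound proteins whose chains wind around each other into rope-like helices. Fibrillar collagens build the tensile fibres of the stroma, type IV collagen forms the sheet-like network of basement membranes, and the remaining groups decorate, link or anchor these structures. Pancreatic ductal adenocarcinoma is known for a dense, collagen-rich stroma laid down largely by fibroblasts. A 3′ library counts molecules near the transcript's end, so UMI levels of different genes were compared without division by gene length.

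Cells were assigned to a class by 12 marker genes per class, none of them a collagen. A marker counted as detected at 1 or more UMIs per 10000 UMIs of the cell, and a class was given to a cell with at least 3 of its markers detected and at least 2 times as many as for any other class. This gave 74, 134, 41 and 73 fibroblasts, 58, 86, 29 and 13 endothelial cells, 811, 1967, 559 and 1668 tumour cells, and 1353, 761, 711 and 603 macrophages or monocytes, called myeloid cells here. Between 492 and 869 kept cells per library received no class. Kept barcodes shared by 2 libraries numbered between 0 and 6. In fibroblasts, the 12 endothelial markers summed to 92.7, 96.9, 171 and 160 per 1000000 UMIs. The 12 tumour cell markers summed to 80.7, 185, 28.5 and 77.5. Of these lists, only the endothelial genes Tie1 and Tek and the epithelial genes Epcam and Cldn4 were at 0 UMIs in the fibroblasts of all libraries. Total UMIs per library ranged from 24411656 to 63898758, and the median UMIs per kept cell were higher in the TAK-981 libraries (5024.5 and 12831) than in the vehicle libraries (2269 and 4152.5). The mitochondrial share of UMIs was also higher with TAK-981 (6.9% and 5.11% against 2.93% and 2.71%). The summed level of 12 acinar markers was higher with TAK-981 in all 4 classes, for example 68.2 to 120 per 1000000 UMIs against 4.94 to 13.5 in tumour cells. Depth, mitochondrial share and acinar RNA therefore moved with the treatment, and their part in the differences between treatments was not tested. With 2 mice a group, an exact two-sided permutation test cannot give a p below 0.333.

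Fibroblasts put about 3% of their mRNA molecules into collagen, far more than any other class. Collagen UMIs made up 3.34%, 2.86%, 3.38% and 2.82% of all fibroblast UMIs. In endothelial cells the share was 0.661%, 0.853%, 0.583% and 0.601%. In tumour cells it was 0.0389%, 0.0456%, 0.0402% and 0.0375%. Among fibroblasts, endothelial cells and tumour cells, the 4 libraries of a class lay closer together than neighbouring classes did. In myeloid cells the share was 0.00753%, 0.0108%, 0.0253% and 0.0119%, a wider spread than the gap between myeloid and tumour cells. In TAK-981 1 a single myeloid cell held 613 UMIs, or 48.0%, of the collagen UMIs of the class. By number of molecules, fibroblasts held 67.3%, 54.3%, 61.6% and 53.9% of the collagen UMIs of kept cells. Tumour cells, which were more numerous, held 17.3%, 26.2%, 11.6% and 32.0%. These percentages depend on how many cells of each class survived dissociation and passed the gate.

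No difference in the collagen share between treatments could reach significance with 2 mice a group, and the groups overlapped in fibroblasts and tumour cells but not in endothelial or myeloid cells. In fibroblasts the share was 3.102% ± 0.342 (SD, n = 2) with vehicle and 3.098% ± 0.398 (SD, n = 2) with TAK-981 (exact permutation test, two-sided p = 1.0). In endothelial cells the vehicle libraries averaged 0.757% ± 0.136 (SD, n = 2) and the TAK-981 libraries 0.592% ± 0.0126 (SD, n = 2), without overlap, at the smallest p the exact test can give (0.333). In tumour cells the means were 0.0422% ± 0.00474 (SD, n = 2) and 0.0388% ± 0.00191 (SD, n = 2), with overlap (exact permutation p = 0.667). In myeloid cells they were 0.00918% ± 0.00234 (SD, n = 2) and 0.0186% ± 0.00949 (SD, n = 2), without overlap (exact permutation p = 0.333), and single cells held 48.0% and 34.4% of the collagen UMIs in the TAK-981 libraries.

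**Figure D1:**
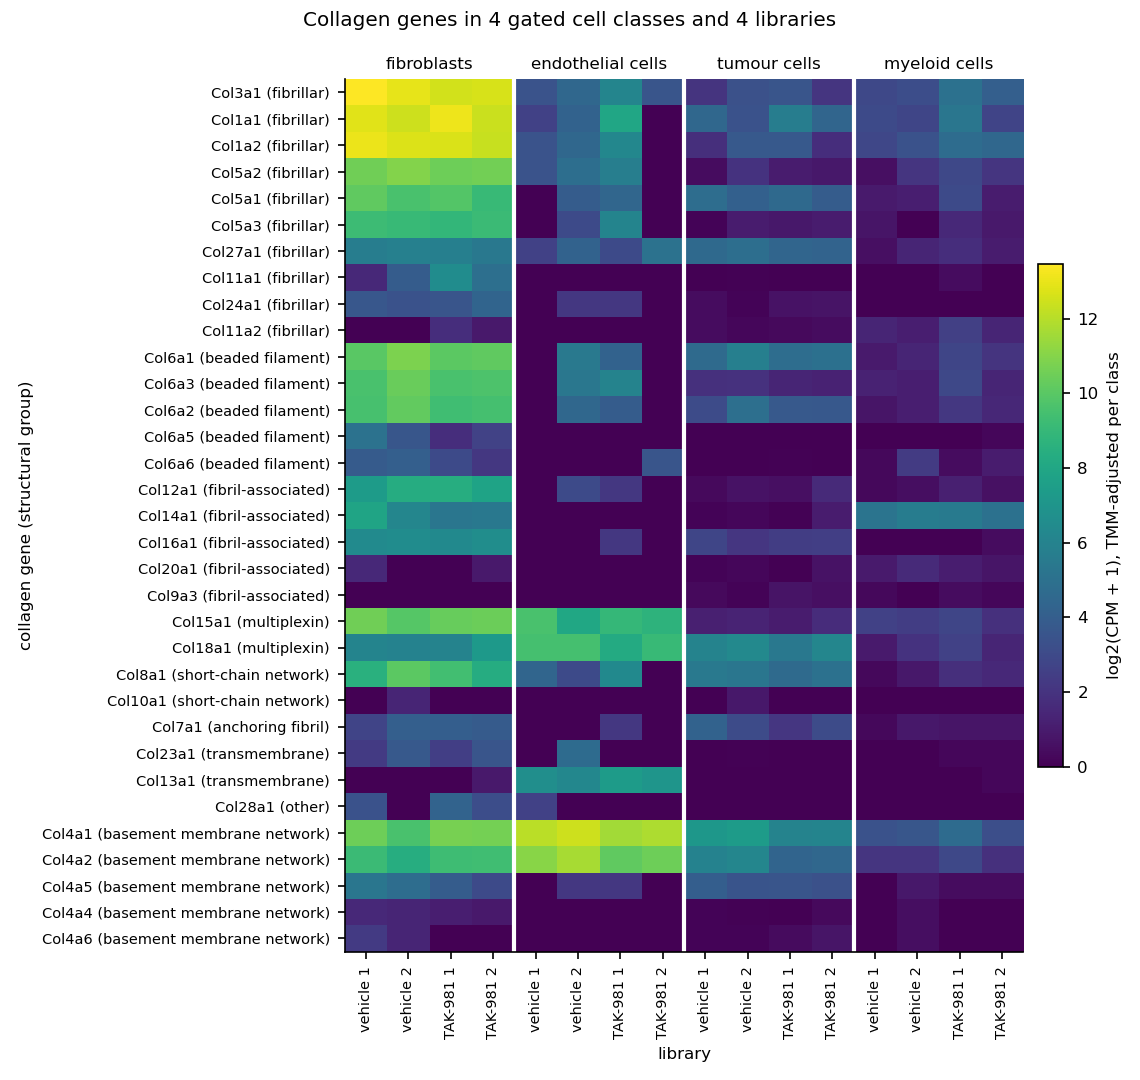
Levels of the 33 collagen genes, grouped by structure (rows), in the 16 sums of 4 cell classes by 4 libraries (columns), as log2 of counts per 1000000 plus 1. Fibrillar and beaded-filament chains are high in the 4 fibroblast columns, Col4a1 and Col4a2 are highest in endothelial columns, and Col14a1 stands out in fibroblast and myeloid columns.

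Each class had its own mixture of collagen types. In fibroblasts, fibrillar chains made up 81.2%, 74.6%, 77.3% and 73.1% of collagen UMIs, and basement membrane chains 5.46%, 3.54%, 7.10% and 8.30%. In endothelial cells, basement membrane chains made up 79.6%, 86.7%, 71.6% and 81.6%, followed by the multiplexins Col15a1 and Col18a1 with 18.4%, 9.78%, 13.4% and 15.4%. Fibrillar chains thus led in fibroblasts and basement membrane chains in endothelial cells. Tumour cells had a more even mixture, with basement membrane chains at 47.0% and 45.5% with vehicle and 28.4% and 30.1% with TAK-981, and multiplexins at 14.3%, 14.8%, 12.5% and 22.5%. Without the cell with most collagen UMIs in each library, an alternative chosen after seeing the data, the basement membrane part in tumour cells was 47.2%, 46.4%, 31.8% and 30.6%, still without overlap of the groups. In myeloid cells the fibril-associated part was 44.0%, 44.7%, 20.8% and 30.3%, and without the top cell 44.6%, 44.5%, 38.7% and 45.7%. The lower myeloid values with TAK-981 thus rested largely on 1 cell per library.

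**Figure D2:**
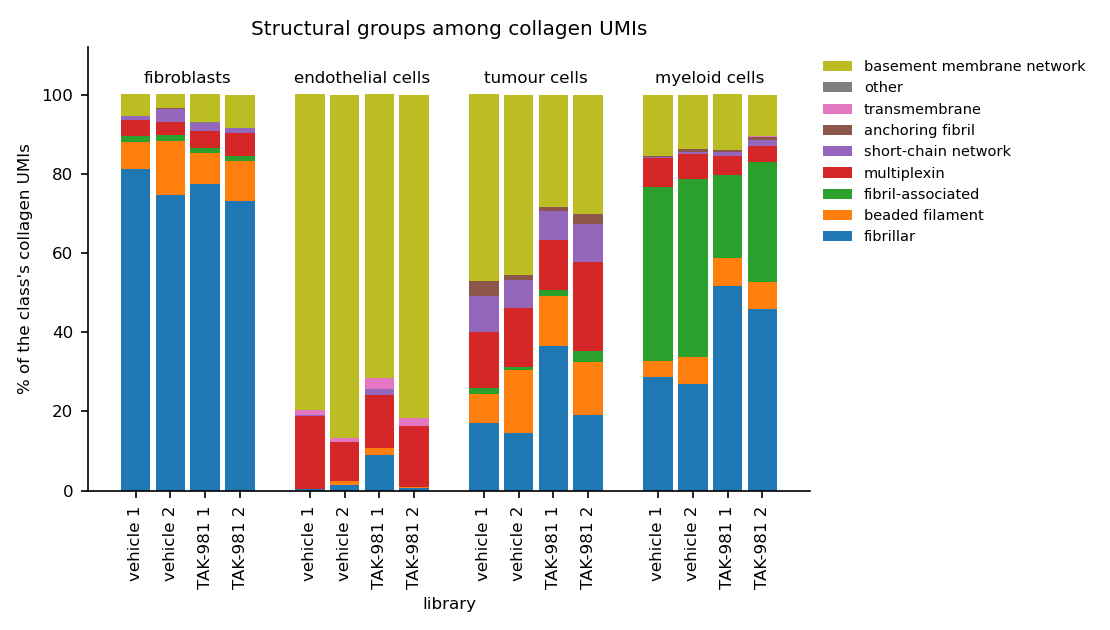
Percentage of each class's collagen UMIs (y axis) that fell to each structural group of collagens (coloured segments), for the 4 libraries of each class (x axis). Fibrillar chains take 73.1% to 81.2% in fibroblasts, basement membrane chains take 71.6% to 86.7% in endothelial cells, and in tumour cells the basement membrane segment is smaller in the TAK-981 libraries.

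Differences between classes were tested in edgeR's quasi-likelihood model on the 16 sums, with a term for the library and Benjamini-Hochberg adjustment over 11181 genes. Of the 33 members, 23 passed the filter on low counts. This filter was applied to the 16 sums together, so counts in a single class could let a member pass. Col12a1 had 826 UMIs in fibroblasts and 3 in endothelial cells, and Col13a1 had 1 and 101. For members kept through a single class, a difference from other classes is partly built in by the filter. The counts of members below are therefore descriptions of the kept members. The percentages of all genes come from the same filter. Against endothelial cells, 18 of the 23 were higher in fibroblasts and 4 lower, where 15.5% of all genes were higher and 12.1% lower. Against tumour cells, 20 of 23 were higher in fibroblasts and 0 lower (30.3% and 28.7% of all genes). Against myeloid cells, 21 of 23 were higher in fibroblasts (24.7% of all genes) and 0 lower (26.1% of all genes). Tumour cells exceeded myeloid cells for 13 of 23 members and were below them for 6 (34.4% of all genes higher, 34.3% lower). The median log2 difference of the 23 members was 5.02 over endothelial cells, 5.27 over tumour cells and 8.20 over myeloid cells, where the medians of all genes were 0.065, -0.0126 and -0.0738.

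Among the fibrillar chains, Col3a1, the single chain of type III collagen, and Col1a1 and Col1a2, the chains of type I collagen and the bulk of most stroma, were the most abundant members in fibroblasts. Col3a1 (ENSMUSG00000026043) lies on the plus strand of chromosome 1 from 45311538 in GRCm38, the build also called mm10. Counts per 1000000 (CPM), scaled by edgeR's trimmed mean of M values (TMM), were 11250, 7956, 6012 and 6328 for Col3a1 in fibroblasts. Col1a1 (ENSMUSG00000001506, chromosome 11 from 94936224) stood at 7351, 5555, 8982 and 5348 CPM. Col1a2 (ENSMUSG00000029661, chromosome 6 from 4504814) stood at 8502, 6941, 6586 and 5150 CPM. The order of these 3 changed from library to library, so their levels could not be ranked. Summed over the libraries, they stood at 7309, 6649 and 6393 UMIs per 1000000 in fibroblasts, against 30.1, 79.0 and 30.1 in endothelial cells, 5.76, 24.6 and 6.14 in tumour cells and 17.7, 16.2 and 18.0 in myeloid cells. The log2 difference between fibroblasts and endothelial cells was 8.59 ± 0.585 (SE) for Col3a1 (edgeR adjusted p = 2.1e-08), 7.54 ± 0.548 for Col1a1 (adjusted p = 4.22e-08) and 8.40 ± 0.668 for Col1a2 (adjusted p = 9.96e-08).

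Free RNA in the droplets sets a floor under the levels in other classes. In T and NK cells, which are not known to make collagen, Col3a1 and Col1a1 each stood at 6.54 UMIs per 1000000 (6 UMIs of 917844, exact Poisson 95% interval 2.40 to 14.2) and Col1a2 at 8.72 (3.76 to 17.2). The intervals cover counting error only. The Col3a1 and Col1a2 levels of tumour cells lay inside these intervals and are not read as expression. In myeloid cells, Col1a2 with vehicle (5.69 and 8.78) also lay inside its interval. Myeloid Col1a2 held 27, 23, 146 and 123 UMIs, and 24, 23, 21 and 17 without the cell with most collagen UMIs in each library. The summed myeloid levels of the 3 chains, just above the intervals, are therefore not read as expression either. Endothelial Col1a1 held 1, 5, 70 and 0 UMIs, nearly all of them from TAK-981 1, where 3 UMIs were left without the cell with most collagen UMIs. Endothelial Col3a1 held 2, 6, 20 and 1 UMIs and endothelial Col8a1 4, 2, 24 and 0, again highest in TAK-981 1.

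The remaining fibrillar chains were less abundant, and most of them were again highest in fibroblasts. Col5a1, Col5a2 and Col5a3, the chains of type V collagen, which nucleates fibrils and sets their width, had 793, 1589 and 540 UMIs per 1000000 in fibroblasts. In tumour cells Col5a1 differed from its partners, with 18.2 UMIs per 1000000 against 1.23 for Col5a2 and 0.946 for Col5a3. This was not so in endothelial cells (10.4 against 26.0 and 21.8) or in myeloid cells (2.94 against 3.62 and 1.075). Col27a1, a fibrillar chain best known from cartilage, stood at 49.8 UMIs per 1000000 in fibroblasts and 22.1 in tumour cells. Col11a1, a minor fibrillar chain widely used as a marker of activated fibroblasts in carcinomas, held 121 UMIs in fibroblasts, 3 in tumour cells, 2 in myeloid cells and 0 in endothelial cells, at least 12.32-fold higher in fibroblasts than in endothelial cells with a floor of 3 UMIs over the 4 libraries. Col24a1 stood at 13.3 UMIs per 1000000 in fibroblasts and 0.531 in tumour cells. Col11a2 stood at 2.60 in myeloid cells, 0.952 in fibroblasts, from 3 UMIs, and 0.34 in tumour cells.

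Type VI collagen, the beaded filament around cells, was led by Col6a1, Col6a3 and Col6a2 with 1230, 899 and 791 UMIs per 1000000 in fibroblasts. In tumour cells the same chains stood at 35.1, 1.91 and 15.4 UMIs per 1000000, and in endothelial cells at 17.7, 30.1 and 10.4. The endothelial levels rest on 0, 12, 5 and 0 UMIs for Col6a1, 0, 11, 18 and 0 for Col6a3 and 0, 6, 4 and 0 for Col6a2. Those of TAK-981 1 fell to 0 without the cell with most collagen UMIs. All 3 chains were higher in fibroblasts than in endothelial cells (edgeR adjusted p = 3.35e-08, 6.12e-07 and 2.12e-08). Col6a5 and Col6a6, alternative chains of type VI, had 32 and 27 UMIs in fibroblasts, and Col6a6 also had 19 in myeloid cells.

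Among the basement membrane chains, Col4a1 and Col4a2, which assemble with each other into the main type IV network, were the leading collagens of endothelial cells. Col4a1 stood at 3743 UMIs per 1000000 in endothelial cells, 1393 in fibroblasts, 96.1 in tumour cells and 14.5 in myeloid cells. Col4a2 stood at 1882, 551, 36.2 and 4.19 in the same order. Both were lower in fibroblasts than in endothelial cells, by -1.18 ± 0.362 (log2, SE) for Col4a1 (edgeR adjusted p = 0.0212) and -1.36 ± 0.395 for Col4a2 (adjusted p = 0.0161). Without vehicle 1 or without vehicle 2 these calls were lost, with edgeR adjusted p = 0.0927 and 0.109 for Col4a1 and 0.0832 and 0.0869 for Col4a2. Col4a5, a chain of the alternative type IV networks, was at 18.1 UMIs per 1000000 in fibroblasts and 10.97 in tumour cells, a difference that did not pass the test (log2 0.61, edgeR adjusted p = 0.13). Col4a6 and Col4a4 were near the limit of counting, with 48 and 16 UMIs in tumour cells (0.51 and 0.17 per 1000000) and 3 and 4 UMIs in fibroblasts (0.952 and 1.27 per 1000000).

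The multiplexins Col15a1 and Col18a1, proteoglycan collagens of basement membrane zones, were distributed differently from each other. Col15a1 stood at 1272 UMIs per 1000000 in fibroblasts, 427 in endothelial cells, 1.96 in tumour cells and 4.64 in myeloid cells. Col18a1, the precursor of endostatin, stood at 93.3, 498, 70.0 and 2.71. In fibroblasts Col15a1 exceeded endothelial cells by 1.79 ± 0.263 (log2, SE, edgeR adjusted p = 6.79e-05), whereas Col18a1 was lower than in endothelial cells by -2.34 ± 0.369 (adjusted p = 0.000134). Fibroblasts and tumour cells were not told apart for Col18a1 (log2 0.33 ± 0.344, SE, adjusted p = 0.431), and the sign turned without TAK-981 2 (log2 -0.08, edgeR adjusted p = 0.877).

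The start regions of several members were read to show how the genes begin. RefSeq promoters in GRCm38.p6 (250 bases before the start) were matched for 28 of the 33 members. The letters TATAAA, on either strand, occurred in 4 of the 28 (Col3a1, Col10a1, Col11a2 and Col13a1) and in 12.4% of 32851 promoters. CCAAT occurred in 9 of 28 and in 33.8% of promoters, and GGGCGG, the GC box, in 17 of 28 and in 32.7%. The 3 below are stretches just before the start of a fibroblast chain and of the multiplexin Col18a1, which was highest in endothelial cells, and the piece shared by the divergent pair Col4a1 and Col4a2. Capitals mark matches to the motifs on either strand. A match describes the letters and is not a measured binding site.
Col3a1, chr1:45311418-45311537, plus strand: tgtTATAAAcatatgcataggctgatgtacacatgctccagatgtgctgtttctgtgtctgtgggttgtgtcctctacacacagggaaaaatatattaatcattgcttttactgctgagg
Col18a1, chr10:77166549-77166668, minus strand: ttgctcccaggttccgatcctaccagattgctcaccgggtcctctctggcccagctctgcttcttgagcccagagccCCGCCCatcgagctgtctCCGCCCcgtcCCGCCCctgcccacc
Col4a1 and Col4a2 overlap, chr8:11312805-11312826, plus strand: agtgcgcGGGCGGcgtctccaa

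Col4a1 (ENSMUSG00000031502, chromosome 8, 11198423 to 11312826, minus strand) and Col4a2 (ENSMUSG00000031503, chromosome 8, 11312805 to 11449287, plus strand) are annotated head to head, and the annotated genes share the 22 bases printed above. Their counted 3′ ends lie at opposite ends of the locus. Other members also neighbour each other. Col3a1 and Col5a2 lie 24614 bases apart on chromosome 1, Col6a1 and Col6a2 85161 bases apart on chromosome 10, and Col4a5 and Col4a6 1308 bases apart on the X chromosome.

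Fibril-associated collagens sit on the surface of fibrils, and Col14a1, their best measured member in myeloid cells, was not confined to fibroblasts. Col14a1 (ENSMUSG00000022371, chromosome 15, 55307750 to 55520803) stood at 209, 62.7, 40.9 and 43.5 UMIs per 1000000 in fibroblasts and at 31.8, 46.2, 49.6 and 34.1 in myeloid cells. Vehicle 1 fibroblasts were high, and the other fibroblast libraries overlapped the myeloid ones. Fibroblasts and myeloid cells were not told apart (log2 0.75, edgeR adjusted p = 0.256), and without vehicle 1 the difference was -0.04 (edgeR adjusted p = 0.956). Col14a1 was the most abundant collagen of myeloid cells, with 702 UMIs against 319 for Col1a2, the next. It was detected in 8.65%, 13.9%, 20.4% and 19.9% of myeloid cells, and in 2.98%, 4.17%, 4.32% and 2.08% after each cell was thinned to 1000 UMIs, which left out 76, 42, 179 and 25 shallower cells. T and NK cells gave 0% in all libraries, before and after thinning. This allows shares of up to 2.75%, 6.12%, 5.45% and 2.46% before thinning, and of 3.45%, 9.38%, 5.56% and 2.52% after it. The thinned myeloid shares lay below the thinned limits in every library, so detection at equal depth cannot tell these classes apart. Before thinning, T and NK cells were shallower, with median UMIs of 1181 to 3388 per cell against 3089 to 7808 in myeloid cells. Summed over the 4 libraries, T and NK cells had 0 Col14a1 UMIs of 917844, with an exact Poisson 95% upper limit of 4.02 per 1000000. The myeloid level of every library lay above this summed limit. Per library, a limit of 3 UMIs in T and NK cells was 17.6, 47.2, 13.3 and 6.54 per 1000000. In vehicle 2 this limit exceeded the myeloid level of 46.2, so T and NK cells of that library cannot separate the classes. Endothelial cells held 0 Col14a1 UMIs, and fibroblasts exceeded them at least 24.95-fold with a floor of 3 UMIs over the 4 libraries. In tumour cells 0.123%, 0.153%, 0.179% and 1.56% of cells had a Col14a1 UMI. Tumour cells were lower than myeloid cells for Col14a1 (log2 -6.35, edgeR adjusted p = 7.42e-07). A limit of 3 UMIs in endothelial cells was 12.2, 9.1, 10.3 and 31.8 per 1000000, below the myeloid level of each library. Myeloid cells were not tested against endothelial or T and NK cells. Col1a2, by contrast, ranged from 5420 to 7570 UMIs per 1000000 in fibroblasts and from 5.69 to 28.9 in myeloid cells. Of the 12 fibroblast markers, the summed level in myeloid cells was 8.01 and 9.16 per 1000000 with vehicle and 29.7 and 94.6 with TAK-981. Col12a1, a fibril-associated collagen of stressed tissue, had 262 UMIs per 1000000 in fibroblasts and 0.679 in myeloid cells, and Col16a1, of the same family, 89.2 and 0.113.

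**Figure D3:**
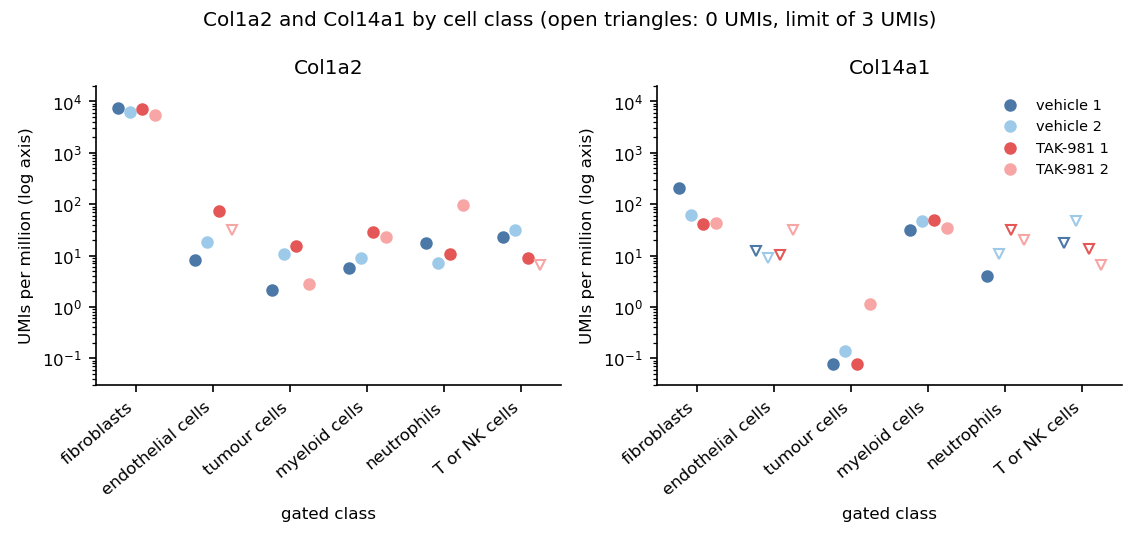
Levels of Col1a2 and Col14a1 in UMIs per 1000000 (log y axis) by cell class (x axis), with 1 point per library and open triangles for libraries with 0 UMIs, drawn at the limit of 3 UMIs. Col1a2 lies at 5420 to 7570 in fibroblasts and at 5.69 to 28.9 in myeloid cells, whereas Col14a1 lies at 40.9 to 209 in fibroblasts and 31.8 to 49.6 in myeloid cells.

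The remaining members were of other structural groups or scarce. Col13a1, a transmembrane collagen of cell adhesion sites, had 101 UMIs in endothelial cells against 1 in fibroblasts, 1 in myeloid cells and 0 in tumour cells, and was lower in fibroblasts than in endothelial cells (edgeR adjusted p = 9.85e-07). Col8a1, a short-chain network collagen of vessel walls, stood at 573 UMIs per 1000000 in fibroblasts, 34.1 in tumour cells and 31.2 in endothelial cells. Col7a1, the anchoring fibril of epithelia, had 795 UMIs in tumour cells and 41 in fibroblasts, yet their levels, 8.45 and 13.0 UMIs per 1000000, were not told apart (log2 0.60, edgeR adjusted p = 0.259). Col9a3 had 40 UMIs in tumour cells (0.425 per 1000000), 4 in myeloid cells and 0 in fibroblasts and endothelial cells. Col20a1 stood at 0.393 UMIs per 1000000 in tumour cells, 1.07 in myeloid cells and 0.635 in fibroblasts, the last from 2 UMIs, and Col10a1 at 0.149 in tumour cells and 0.318 in fibroblasts, the last from 1 UMI. These levels are below the upper limits in T and NK cells and are not read as expression. Col23a1 had 26 UMIs in fibroblasts and 7 in endothelial cells, all 7 from vehicle 2. Its levels in these classes were close, at 8.25 and 7.27 UMIs per 1000000. Col28a1 had 30 UMIs in fibroblasts (9.52 per 1000000) and 1 in endothelial cells (1.04 per 1000000).

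Ratios between chains that assemble with each other were read per library. These ratios were chosen after their values were seen and are given as descriptions. In fibroblasts, Col1a1 to Col1a2 was 0.865, 0.8, 1.36 and 1.04, Col6a3 to Col6a2 was 1.03, 1.11, 1.22 and 1.15, and Col5a2 to Col5a1 was 1.29, 2.59, 1.52 and 2.89. The type VI ratio varied least of the 3 between libraries. In tumour cells, Col1a1 to Col1a2 was 8.78, 0.740, 4.09 and 8.33, and without the cell with most collagen UMIs in each library it was 8.63, 0.886, 50.7 and 14.3. A single cell therefore set the value in TAK-981 1. The tumour levels of Col1a2, Col5a2 and Col6a3 (6.14, 1.23 and 1.91 UMIs per 1000000) all lay within the intervals of T and NK cells (3.76 to 17.2, 0 to 4.02 and 0.0276 to 6.07), so no tumour ratio of these chains is read as one of expressed chains. Col4a1 to Col4a2 was 2.49, 2.35, 2.67 and 2.49 in fibroblasts, 2.01, 1.67, 2.65 and 2.47 in endothelial cells, and 2.23, 2.32, 3.37 and 3.08 in tumour cells. The treatment groups did not overlap in endothelial cells (log2 difference between treatments of 0.48) or in tumour cells (0.50), each with an exact permutation p = 0.333, the smallest the design can give.

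The comparison of treatments asks whether collagen mRNA differed with TAK-981 within each class. In tumour cells, the type IV chains Col4a1 and Col4a2 fell. Col4a1 stood at 139, 167, 63.5 and 65.4 CPM, from 1506, 2952, 990 and 3601 UMIs. Its log2 change was -1.25 ± 0.22 (SE, edgeR adjusted p = 0.0397). Both TAK-981 libraries lay below both vehicle libraries. Col4a2 stood at 62.4, 71.8, 18.9 and 21.3 CPM, from 675, 1270, 294 and 1171 UMIs, a log2 change of -1.74 ± 0.222 (SE, edgeR adjusted p = 0.0168), again without overlap. These were the 2 members called of 19 tested, and both were lower, where 2.17% of 12501 genes were called lower, 0.816% higher and 2.98% in either direction. At an unadjusted p below 0.05 there were the same 2 members, and 20.7% of all genes.

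The calls of Col4a1 and Col4a2 depend on how the libraries were scaled and on single mice, while their direction was the same in the 16 alternatives run. With library totals in place of TMM, the median of all genes in tumour cells moved up by 0.51 (log2), the calls over all genes went from 102 higher and 271 lower to 1546 higher and 237 lower, and the log2 change was -0.74 for Col4a1 (edgeR adjusted p = 0.0644) and -1.23 for Col4a2 (adjusted p = 0.0307). Without TAK-981 1, the edgeR adjusted p was 0.181 for Col4a1 and 0.0929 for Col4a2. Without TAK-981 2 it was 0.121 and 0.0468, and without vehicle 2 it was 0.130 and 0.0413. After thinning each cell to 1000 UMIs, Col4a1 was detected in 12.6%, 11.6%, 6.74% and 6.93% of tumour cells, again lower in both TAK-981 libraries, against 0%, 0%, 0% and 0.84% of T and NK cells. Before thinning, which left out 23, 56, 40 and 23 shallower tumour cells, the shares were 72.0%, 63.4%, 58.3% and 67.6%. The summed level of 12 endothelial markers in tumour cells was 8.87 and 13.1 per 1000000 with vehicle and 26.1 and 25.0 with TAK-981, with Tek at 0 in all libraries, and that of 12 fibroblast markers 19.4, 35.6, 22.7 and 20.6. The endothelial list was thus higher with TAK-981 and the fibroblast list overlapped between groups.

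**Figure D4:**
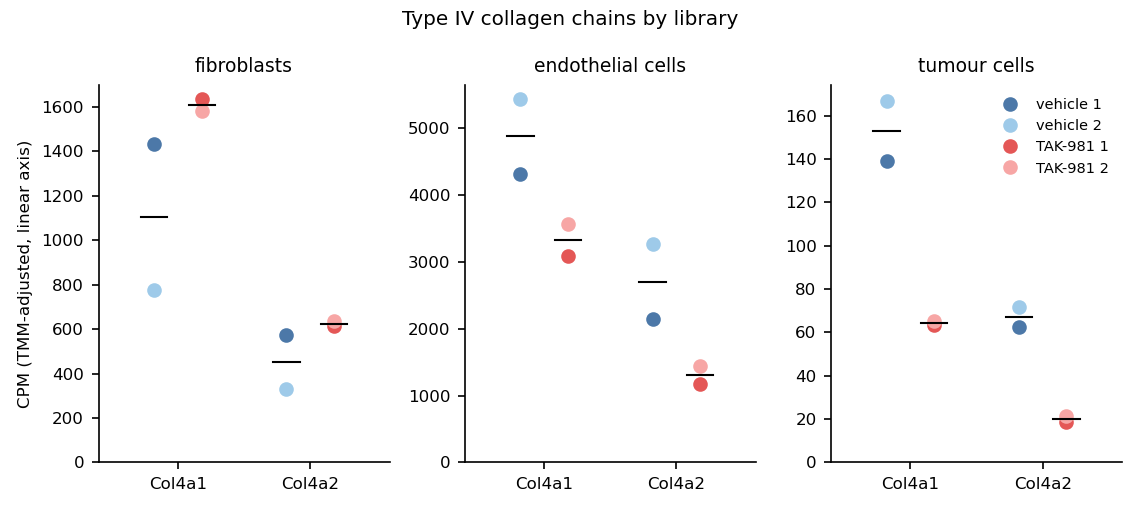
Col4a1 and Col4a2 in CPM (y axis) by class and treatment (x axis), with points for the libraries and lines for the mean of 2. In tumour cells Col4a1 lies at 139 and 167 CPM with vehicle and at 63.5 and 65.4 with TAK-981, while in fibroblasts both TAK-981 points lie above both vehicle points.

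The other tumour cell collagens did not pass the test. Col6a1 stood at 24.0, 54.4, 26.9 and 30.2 CPM (log2 -0.46, edgeR adjusted p = 0.541), with overlap. Col18a1 stood at 64.5, 79.3, 40.1 and 70.2 CPM (log2 -0.38, edgeR adjusted p = 0.538), and the groups overlapped. Col8a1 stood at 41.8, 37.9, 24.1 and 31.1 CPM without overlap (log2 -0.53, adjusted p = 0.259). Col1a1 was 21.9, 9.33, 50.9 and 20.3 CPM with overlap (log2 1.19, adjusted p = 0.270). Groups did not overlap for 7 of 19 members, against 53.0% of all genes. The 19 members had a median log2 change of -0.38, and the median of all genes was 0.0113. With library totals the members' median was 0.12.

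In endothelial cells 0 of 5 members tested were called by edgeR, where 3.01% of 4354 genes were. At an unadjusted p below 0.05 there were 2 members and 13.4% of all genes, and DESeq2 called 1 member, Col4a2, and 105 of 8217 genes. Col4a1 stood at 4316, 5439, 3088 and 3569 CPM (log2 -0.55, edgeR adjusted p = 0.516). Col4a2 stood at 2146, 3262, 1166 and 1443 CPM (log2 -1.06 ± 0.337, SE, adjusted p = 0.131). Col18a1 stood at 712, 721, 298 and 532 CPM (log2 -0.84, adjusted p = 0.273). In all 3 the TAK-981 libraries lay below the vehicle libraries. Col13a1 stood at 99.6, 75.0, 168 and 130 CPM, higher in both TAK-981 libraries (log2 0.83, edgeR adjusted p = 0.375), and Col15a1 at 782, 261, 501 and 412 CPM with overlap (log2 -0.16, adjusted p = 0.906). Groups did not overlap for 4 of 5 members, against 44.4% of all genes. The TAK-981 2 values rest on 13 endothelial cells and those of TAK-981 1 on 29. Without TAK-981 2 edgeR called 4 members (285 of 5546 genes), with Col18a1 lower and Col1a1, Col5a3 and Col8a1 higher. Without vehicle 1 it called 2, Col1a1 and Col4a2 (238 of 5653 genes), and without vehicle 2 it called Col1a1 (184 of 5115 genes). Nearly all Col1a1 UMIs behind these calls are those of the single TAK-981 1 cell named above. The summed levels of macrophage and of tumour cell markers in endothelial cells were highest in TAK-981 1, at 662 and 631 per 1000000, against 40.5 to 94.1 and 36.5 to 222 in the other libraries, and their part was not tested. With library totals the calls over all genes in endothelial cells went from 23 higher and 108 lower to 41 higher and 69 lower.

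In fibroblasts 0 of 21 members tested were called by edgeR, where 1.13% of 7321 genes were. At an unadjusted p below 0.05 there were 3 members, Col11a1, Col14a1 and Col4a5, where 11.1% of all genes had such a p, and DESeq2 called Col11a1 and Col14a1 (150 of 10772 genes). Col11a1 had 1, 9, 78 and 33 UMIs, a log2 change of 2.77 ± 0.774 (SE, edgeR adjusted p = 0.196), higher in both TAK-981 libraries. Without TAK-981 2 Col11a1 was the 1 member called (131 of 7837 genes). Col14a1 stood at 235, 70.1, 38.5 and 41.3 CPM, a log2 change of -1.92 ± 0.522 (SE, adjusted p = 0.181), with vehicle 1 far above the rest. Col4a5, of the alternative type IV network, stood at 38.5, 27.1, 14.0 and 7.19 CPM (log2 -1.64, edgeR adjusted p = 0.217). Col4a1 stood at 1432, 775, 1635 and 1580 CPM (log2 0.54, adjusted p = 0.643) and Col4a2 at 574, 330, 612 and 634 CPM (log2 0.46, adjusted p = 0.660), higher in both TAK-981 libraries and so opposite in sign to tumour cells. The type I and III chains were not told apart between treatments, with log2 changes of -0.64 for Col3a1 (edgeR adjusted p = 0.618), 0.15 for Col1a1 (adjusted p = 0.931) and -0.40 for Col1a2 (adjusted p = 0.759). The other abundant members had adjusted p of 0.606 or more in edgeR. Col5a2 stood at 1507, 2004, 1428 and 1567 CPM, Col5a1 at 1164, 773, 941 and 543 CPM, and Col5a3 at 594, 544, 487 and 570 CPM. Col6a1 stood at 1031, 1787, 1085 and 1158 CPM, Col6a2 at 752, 1212, 634 and 719 CPM, and Col6a3 at 773, 1347, 777 and 827 CPM. Col15a1 stood at 1493, 974, 1267 and 1380 CPM and Col8a1 at 376, 1087, 661 and 325 CPM. Type VI chains were highest in vehicle 2, and of these 8 members the groups overlapped in all but Col6a2. The 21 members had a median log2 change of -0.18, against -0.0017 for all genes, and groups did not overlap for 8 of 21 against 42.4% of all genes. With library totals the members' median in fibroblasts was 0.07, and 0 genes were called in place of 83. Pericyte or smooth muscle markers (10 genes) summed to 474 and 624 per 1000000 in fibroblasts with vehicle and to 753 and 1350 with TAK-981, and the share of fibroblasts with pericyte markers was 40.5%, 36.6%, 65.9% and 60.3%. The part of this shift in the values above was not tested.

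**Figure D5:**
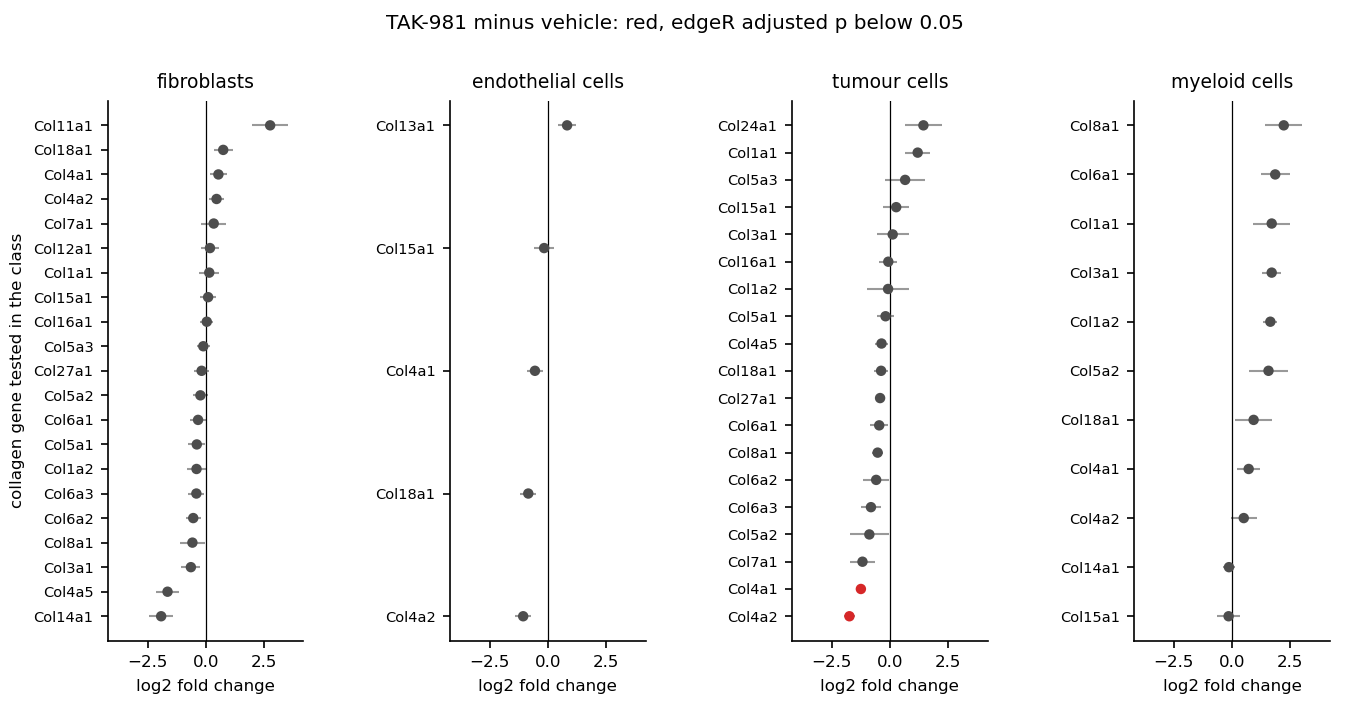
Log2 fold change of TAK-981 against vehicle (x axis) with its standard error for the members tested in each class (panels), with red points for an edgeR adjusted p below 0.05. Only Col4a1 and Col4a2 in tumour cells are red, at -1.25 and -1.74, and most fibroblast members lie within 1 unit of 0.

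In myeloid cells 0 of 11 members tested were called by edgeR, and 0.0% of 10734 genes were. At an unadjusted p below 0.05 there were 4 members and 1467 genes, or 13.7%, and DESeq2 called 1 member, Col1a2, and 261 genes. Col14a1 stood at 35.3, 49.5, 44.9 and 32.0 CPM (log2 -0.13, adjusted p = 0.882) with overlap. Col1a2 stood at 6.32, 9.41, 26.3 and 21.9 CPM (log2 1.65, edgeR adjusted p = 0.0893), and Col3a1 at 6.55, 8.18, 31.6 and 15.8 CPM (log2 1.71, adjusted p = 0.162), higher in both TAK-981 libraries. Col1a1 stood at 7.02, 6.14, 37.8 and 5.70 CPM (log2 1.71, edgeR adjusted p = 0.412), Col4a1 at 9.59, 11.04, 25.2 and 8.54 and Col15a1 at 5.15, 4.50, 6.11 and 2.67. These 3 overlapped between groups, and TAK-981 1 was the highest library for each. Without the cell with most collagen UMIs in each library the changes were -1.09 for Col1a2 (edgeR adjusted p = 0.352) and -0.84 for Col3a1 (adjusted p = 0.412), so their sign rested on 1 cell per library. Without TAK-981 2 edgeR called 3 members higher, Col1a1, Col1a2 and Col3a1 (289 of 11178 genes). Groups did not overlap for 4 of 11 members, against 46.0% of all genes.

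Whether the treatment acted differently on collagens in different classes was tested as an interaction, and 0 of 23 members were called in the 6 pairs of classes. Over all genes, 0.134% were called between fibroblasts and tumour cells, 0.0447% between endothelial and tumour cells, 0.724% between tumour and myeloid cells and 0.0% in the other 3 pairs. At an unadjusted p below 0.05, between 1 and 9 members appeared per pair, and between 4.77% and 12.2% of all genes. The member nearest to a call between fibroblasts and tumour cells was Col4a2, with a log2 difference in treatment effect of 2.23 ± 0.43 (SE, edgeR adjusted p = 0.0697), followed by Col4a1 with 1.82 (adjusted p = 0.211). The fall of type IV chains is therefore not shown to be special to tumour cells.

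Within fibroblasts, collagens differed between kinds of cells. Cells with at least 2 of the 10 pericyte or smooth muscle markers were compared with the rest of the same library. Of 18 members tested, 1 was called, Col8a1, which was higher (0.508% of 4524 genes were called higher), with 419, 1536, 898 and 428 CPM in marked cells against 375, 892, 270 and 208 in the rest, a log2 difference of 0.93 ± 0.21 (SE, edgeR adjusted p = 0.0426). It was higher in the marked cells of 4 of 4 libraries. Cells leaning to myofibroblast-type or inflammatory-type markers were compared in vehicle 1, vehicle 2 and TAK-981 2, since TAK-981 1 was dropped with 2 inflammatory-type cells, where the other libraries had 28, 28 and 21. Of 18 members, 4 were called, where 4.54% of 4386 genes were, 0.684% higher in myofibroblast-type cells and 3.85% lower. Col8a1, Col15a1 and Col5a3 were higher in myofibroblast-type cells, by 1.29 ± 0.28 (adjusted p = 0.0235), 1.09 ± 0.21 (adjusted p = 0.0112) and 0.88 ± 0.22 (edgeR adjusted p = 0.0456). Col15a1 stood at 1682, 1105 and 1743 CPM in these cells and at 868, 552 and 709 in inflammatory-type cells. Col14a1 was lower, at 70.4, 44.2 and 39.7 CPM against 651, 140 and 54.0 (log2 -1.91 ± 0.44, SE, edgeR adjusted p = 0.031). The gap for Col14a1 was wide in vehicle 1 and small in TAK-981 2. Col1a1 stood at 6628, 5945 and 6278 CPM in inflammatory-type and 7960, 5415 and 5352 in myofibroblast-type cells, overlapping between kinds.

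Other genes of collagen biology were read from 6 lists. In fibroblasts, where 1.13% of 7321 genes were called, 1 gene of the lists was called, Eln, which encodes elastin. Eln stood at 200, 148, 45.6 and 28.8 CPM (log2 -2.24 ± 0.34, SE, edgeR adjusted p = 0.0359), below vehicle in both TAK-981 libraries, and it was the 1 of 21 interstitial matrix genes called. Fbn1, fibrillin, stood at 1239, 1036, 639 and 432 CPM, also lower in both TAK-981 libraries, and did not pass the test (log2 -1.09, edgeR adjusted p = 0.226). The call of Eln ended with library totals (edgeR adjusted p = 0.0648), without vehicle 1 or vehicle 2 (adjusted p = 0.169 and 0.0735) and without pericyte-marked cells (log2 -3.03, adjusted p = 0.0966), and it held in 10 of 17 alternatives. In tumour cells, where 0.816% of 12501 genes were called higher, 2 of 20 genes of collagen chain assembly and modification rose. They were Fkbp10, a prolyl isomerase chaperone (log2 1.84, edgeR adjusted p = 0.0234), and P3h4, a partner of prolyl hydroxylases (log2 2.06, adjusted p = 0.0147). P3h4 stood at 15.0, 13.1, 60.0 and 57.1 CPM and Fkbp10 at 6.84, 9.95, 30.5 and 30.04, without overlap. The collagen receptor gene Itga1 also rose (log2 1.57, edgeR adjusted p = 0.0307), 1 of 6 receptors. Without TAK-981 1 the calls of Fkbp10 and Itga1 ended (edgeR adjusted p = 0.0969 and 0.103), as they did without TAK-981 2 (adjusted p = 0.0594 and 0.101), and that of Itga1 also ended without either vehicle library. In tumour cells 0 of 11 basement membrane partners, the laminins, nidogens and perlecan among them, were called. In endothelial cells, where 23 of 4354 genes were called higher, 1 of 10 basement membrane partners rose, Agrn, a proteoglycan (log2 2.08, edgeR adjusted p = 0.0229), and 1 of 5 interstitial matrix genes, Fn1, fibronectin (log2 2.71, adjusted p = 0.0497). Of 12 TGF-beta genes 2 rose, the contractile genes Acta2 (log2 3.598, adjusted p = 0.00479) and Tagln (log2 4.44, adjusted p = 0.00208). Without TAK-981 2 the log2 difference of Fn1 was 0.47 (edgeR adjusted p = 0.678), and without TAK-981 1 the call of Agrn ended (adjusted p = 0.136), as it did without vehicle 2 (adjusted p = 0.0646). The call of Fn1 held in 9 of 16 alternatives and that of Agrn in 12 of 16. The summed level of the 10 pericyte or smooth muscle markers in endothelial cells was 122, 604, 559 and 308 per 1000000, and its part in the endothelial changes was not tested. In myeloid cells 0 genes of the lists were called, and 0 of all 10734 genes were.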

How the data were processed

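The authors deposited raw UMI counts per gene and cell barcode for 4 libraries, for which the submitters' processing notes name Cell Ranger 6.1.2 and the build mm10. Barcodes below 500 UMIs, below 250 detected genes or above 20% mitochondrial UMIs were dropped, and the highest doublet scores (Scrublet in scanpy 1.11.5) were removed at 0.8% of cells per 1000 cells. Cells were gated on 12 markers per class and UMIs were summed per library and class. Sums were tested with edgeR 4.0.16 in R 4.3.3 (TMM, its filter on low counts, quasi-likelihood test, Benjamini-Hochberg adjustment over all genes, threshold 0.05), and shares with exact permutation tests in scipy 1.17.1. The code was tested on simulated data. A standard error is the log2 fold change divided by the square root of its F statistic. Each library came from a separate mouse. Gene positions are from GENCODE (GRCm38) and promoters from RefSeq (GRCm38.p6).

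Values per library were given for the members with the highest mean CPM in a class (up to 12 in fibroblasts, 8 in endothelial cells, 6 in tumour cells and 6 in myeloid cells), for members called and for their partner chains. Other members, Col11a1, Col14a1 and Col4a5 in fibroblasts among them, were named after their values were seen. Members, markers and lists were chosen with earlier results of these data known. Alternatives were DESeq2 1.42.0, other size factors, no filter, other gates and cell filters, no doublet removal, a replicate block and leaving out each library. Library totals, detection of a marker by any UMI and leaving out the top collagen cell were added after seeing the data.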

Additional observations from a re-analysis of the deposited data

Results flagged for a closer look

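Collagen UMIs also appeared in neutrophils, a class outside the 4 compared, at 0.0124%, 0.0208%, 0.0473% and 0.0322% of UMIs in vehicle 1, vehicle 2, TAK-981 1 and TAK-981 2, a mean of 0.0397% in the TAK-981 libraries, above the vehicle libraries. In each TAK-981 library 1 cell held most of these UMIs (41 of 45 and 42 of 49).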

How the results depend on the processing

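Of 142 recomputed values for the comparisons, 121 met a simple rule of agreement with the main result. A count of members called had to equal the main count or come within 1.5 times it, without a check of direction. A difference in collagen share had to keep its sign. With DESeq2 the members called between treatments were 2 in fibroblasts, 1 in endothelial cells and 1 in myeloid cells (0 each in edgeR), and without a filter on low counts 4, 3 and, in tumour cells, 5 (2 in the edgeR result). With library totals 1 was called in tumour cells. Leaving out 1 library gave 0 to 1 in fibroblasts, 0 to 4 in endothelial cells, 0 to 2 in tumour cells and 0 to 3 in myeloid cells. A group left with 1 library is then assumed to vary like the other. The difference in the fibroblast share of collagen (TAK-981 minus vehicle, -0.00373 percentage points) was 0.0286 with a gate of 4 markers, 0.00421 with 1000 UMIs per cell, 0.116 without doublet removal and -0.2855 to 0.278 without 1 library. The causes of these changes were not tested. The call of Eln also ended with any UMI detecting a marker (edgeR adjusted p = 0.0669) and with the strict gate (0.323).

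The labels' replicate numbers were tried as a replicate block. It left 1 member called in tumour cells (Col4a2, edgeR adjusted p = 0.0358, Col4a1 0.072) and 0 in the other classes. Over all genes it called 225 in place of 373 in tumour cells, 204 in place of 131 in endothelial cells and 0 in place of 83 in fibroblasts, which ended the call of Eln (edgeR adjusted p = 0.0881). Over genes, same-numbered libraries did not deviate together (r = -0.043, -0.123, -0.078 and -0.132). With 1 difference between libraries per group, this cannot settle whether the numbers pair the mice.

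The members' median log2 change turned sign in fibroblasts (0.0705 with library totals, -0.280 to 0.00691 without 1 library), in endothelial cells (0.63 with DESeq2, 0.47 without a filter, -0.469 to 1.52 without 1 library), in tumour cells (0.12 with library totals, -0.483 to 0.319 without 1 library) and in myeloid cells (-0.0308 when any UMI detected a marker, -0.998 with a strict gate, -0.216 to 1.85 without 1 library). Each median covers the members tested under that setting, so the set of members can differ between settings. In endothelial cells the edgeR result tested 5 members and 4354 genes, DESeq2 tested 8217 genes and the fit without a filter 13345. In myeloid cells Col1a2 was -1.15 with any UMI, -1.34 with the strict gate and -1.09 without the top cell, and Col3a1 was -0.89, -0.95 and -0.84. Without 1 library Col18a1 in fibroblasts minus tumour cells ranged from -0.0783 to 0.563 and Col14a1 in fibroblasts minus myeloid cells from -0.0421 to 1.16. Over all genes, DESeq2 called 150 in fibroblasts (edgeR 83), 1162 in tumour cells (edgeR 373) and 261 in myeloid cells (edgeR 0). The endothelial values of TAK-981 2 rest on 13 cells.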
